A study of Mus musculus with 6 samples.

Results

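Committed oligodendrocyte precursors are the cells that have left the dividing precursor pool of the oligodendrocyte lineage but do not yet make myelin. They were taken here as the cells that carried this label in the deposited annotation and came from mice given FGF1 R50E. They numbered 681 of 20151 cells: 208 in mouse 3, 196 in mouse 4, 161 in mouse 30 and 116 in mouse 34. The hypothalamus was taken from ob/ob males aged 11 weeks, which make no functional leptin and become obese. Into a brain ventricle of each, 3 µg of FGF1 R50E was injected, a variant of the growth factor FGF1 that binds integrins poorly, and the tissue was collected on day 5. All mice share this strain and treatment and form 1 group, so no effect of the treatment can be read from them, and ob/ob animals lack leptin in every tissue. The labels name 6 mice, and the table holds cells of 4 of them. Mice 12 and 37 were not analysed here, and neither were 50172 cells of 12 other libraries.

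Oligodendrocyte precursor cells divide, carry the receptor for platelet-derived growth factor and respond to fibroblast growth factor through the MAPK/ERK pathway. When such a cell commits, it withdraws from the cell cycle, passes through a short premyelinating stage marked by the receptor GPR17, and then turns on the myelin genes. The questions asked of the data were which genes set the committed precursors apart from the types before and after them, how alike they were in the 4 mice, and how uniform they were among themselves.

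The label matched the marker genes. Bmp4, a secreted bone morphogenetic protein, was measured at 291, 394, 282 and 456 CPM (the UMIs of a gene as a scaled share of all UMIs summed over the cells) in committed precursors of mice 3, 4, 30 and 34. In oligodendrocyte precursor cells it had 2 UMIs in all, both in mouse 30, and in oligodendrocytes 7 UMIs. The pooled level was thus 239 times that of precursor cells, with an exact 95% interval for counting error of 65.9 to 1983, and 285 times that of oligodendrocytes, with an interval of 137 to 712. Among the 8 types with at least 20 cells in each mouse, the next level of Bmp4 was the 6.29 CPM of endothelial cells. The vascular and leptomeningeal cells, only 68 in all, held 4 UMIs of it.

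Enpp6, a choline phosphodiesterase that marks newly forming oligodendrocytes, stood at 825, 683, 684 and 674 CPM in the 4 mice. It had 3 UMIs in precursor cells, a ratio of 337 with an exact interval of 115 to 1636. Oligodendrocytes held 31.4 CPM ± 9.47 (SD, n = 4). Mouse 3 was the highest, and the groups did not overlap.

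Gpr17, a G protein-coupled receptor of the premyelinating stage, was at 3289, 2536, 2742 and 3238 CPM in committed precursors. Precursor cells also carried it, at 817, 492, 463 and 686 CPM, and oligodendrocytes held 22.0 CPM ± 6.05 (SD, n = 4). Each mouse had more Gpr17 in its committed precursors than any mouse had in its precursor cells. Neu4, a sialidase that cleaves sialic acids from gangliosides and glycoproteins, was less selective, at 742, 659, 723 and 721 CPM in committed precursors against 372, 275, 437 and 395 CPM in precursor cells. Its log2 fold change against precursor cells was 0.98 ± 0.10 (SE), just short of the 2-fold limit used for calls, and against oligodendrocytes it was 7.26 ± 0.18 (SE). Of the 4 markers, Bmp4 and Enpp6 thus separated committed precursors from both neighbours, and Neu4 and Gpr17 were shared with precursor cells at a lower level.

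**Figure D1:**
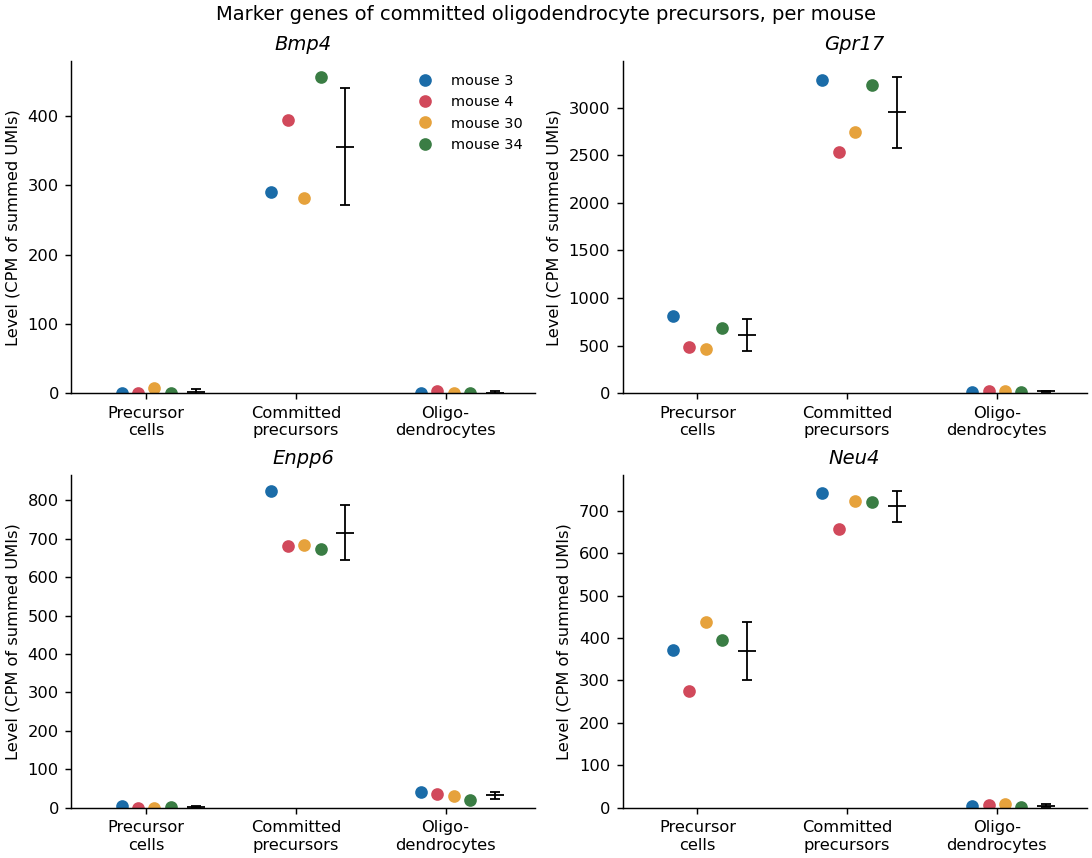
Levels of the 4 marker genes, in CPM of summed UMIs on linear axes from 0, in oligodendrocyte precursor cells, committed precursors and oligodendrocytes. Each point is 1 of 4 mice, and the bar gives the mean and SD. Bmp4 lies between 282 and 456 CPM in committed precursors and near 0 on both sides, while Neu4 and Gpr17 are also present in precursor cells.

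The stretches in front of the marker genes that have a RefSeq entry and may be printed are given to show the sequence context of genes that were high in the same cells. They are the 250 bases before the start site on the GRCm38.p6 build, read on the strand of the gene: chr14:46390670-46390919 on the minus strand for Bmp4, chr8:46986637-46986886 on the plus strand for Enpp6 and chr1:94020243-94020492 on the plus strand for Neu4. Capitals mark the letters ACAAT, a core recognised by SOX factors, CTTTGA, a core recognised by TCF/LEF factors, and CAGCTG, an E-box, each searched on both strands.
Bmp4: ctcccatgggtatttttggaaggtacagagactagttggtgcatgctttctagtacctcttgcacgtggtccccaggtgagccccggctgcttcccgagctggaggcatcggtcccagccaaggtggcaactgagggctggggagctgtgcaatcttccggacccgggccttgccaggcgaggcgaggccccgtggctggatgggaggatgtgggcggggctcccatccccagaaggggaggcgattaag
Enpp6: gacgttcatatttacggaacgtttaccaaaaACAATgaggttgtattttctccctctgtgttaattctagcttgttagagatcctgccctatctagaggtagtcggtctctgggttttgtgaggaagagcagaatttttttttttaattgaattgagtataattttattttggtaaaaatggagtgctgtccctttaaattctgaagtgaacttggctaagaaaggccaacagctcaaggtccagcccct
Neu4: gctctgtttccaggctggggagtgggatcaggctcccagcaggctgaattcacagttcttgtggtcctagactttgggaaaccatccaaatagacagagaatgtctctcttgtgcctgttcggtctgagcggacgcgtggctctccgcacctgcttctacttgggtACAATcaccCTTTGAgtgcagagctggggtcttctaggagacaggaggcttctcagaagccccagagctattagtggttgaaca
The Neu4 window held 1 SOX match and 1 TCF/LEF match, which did not overlap, at 84 and 75 bases before the start site. The Enpp6 window held 1 SOX match at 219 bases, and the Bmp4 window held none of these letters. Such matches are common, as 27.7% of 32841 RefSeq windows of this length held the SOX letters, 13.8% the TCF/LEF letters and 13.0% the E-box, so they describe the windows and locate no binding site. Of the genes called higher than in both neighbours, only 239 of 305 had a window, under the 80% needed, so a comparison of their windows with those of other genes would be void.

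Cell by cell, the markers were spread widely over the committed precursors. Cells were thinned to 500 UMIs each so that depth could not set the shares, and no committed precursor was too shallow for this. Gpr17 was then detected in 69.3% ± 5.71 of committed precursors (SD, n = 4), Enpp6 in 31.6% ± 1.65, Neu4 in 28.0% ± 2.40 and Bmp4 in 15.4% ± 3.73. At least 1 of the 4 was detected in 88.2% ± 2.66 of committed precursors, in 37.0% ± 4.25 of precursor cells and in 2.53% ± 0.519 of oligodendrocytes. Endothelial cells gave 1.88% ± 0.510, the highest share of the astrocytes, tanycytes, ependymal, endothelial and microglial cells. Bmp4 alone was detected in 0.518% of endothelial cells and in 0.0429% of astrocytes. Astrocytes gave 0.977% ± 0.271, tanycytes 0.476% ± 0.140, ependymal cells 0.245% ± 0.285 and microglia 0.399% ± 0.460. The share in oligodendrocytes was mostly that of Enpp6, detected in 1.395% of them and in 0.116% of endothelial cells. Median depths before thinning were 1771 UMIs for committed precursors, 1020 for precursor cells, 1136 for oligodendrocytes and 1064 for endothelial cells. At full depth Gpr17 was found in 92.2% ± 5.15 and Bmp4 in 41.3% ± 12.6 of committed precursors.

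Pdgfra, a gene of precursor cells, and Ermn, a gene of oligodendrocytes, were close to absent. Other genes of these types were present, such as Ptprz1 at 364 CPM and Mbp at 8501 CPM. Pdgfra, the receptor that maintains precursor cells, had 16 UMIs in all committed precursors, or 14.1, 10.2, 23.9 and 3.62 CPM in the 4 mice, against 1259 CPM ± 103 in precursor cells (SD, n = 4). Oligodendrocytes held 13.9 CPM ± 7.33 and astrocytes 10.4 CPM ± 6.27, so Pdgfra in committed precursors was at the level of types that do not use it. Ermn, a cytoskeletal protein of mature oligodendrocytes, likewise stood at 13.5 CPM ± 6.05, beside 12.5 CPM ± 2.54 in astrocytes and 1243 CPM ± 151 in oligodendrocytes.

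Markers of other cell types were low. The 10 astrocyte markers summed to 1334 to 1922 CPM over the 4 mice, beside 3799 to 4585 CPM in precursor cells, 2339 to 3210 CPM in oligodendrocytes and 17400 to 18450 CPM in astrocytes. The 9 microglia markers summed to 68.2 to 228 CPM and the 7 endothelial markers to 34.1 to 130 CPM. The 8 tanycyte markers summed to 6.02 to 47.9 CPM with Scn7a, Slc17a8 and Adm at 0, the 7 ependymal markers to 32.6 to 68.2 CPM, and the 9 mural and leptomeningeal markers to 24.1 to 47.9 CPM with Acta2 at 0. The 10 neuron markers summed to 116 to 278 CPM with Slc32a1 at 0, and the 6 blood and choroid markers to 94.2 to 454 CPM with Folr1 at 0. Blood and choroid genes were highest in mouse 3, and their part in any result was not tested.

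Committed precursors were the richest cells of their lineage in RNA molecules. A committed precursor held a median of 2402.5, 1219.5, 1081 and 2342.5 UMIs in mice 3, 4, 30 and 34, against 1154, 783.5, 765 and 1128 in precursor cells and 1304.5, 948, 894 and 1089 in oligodendrocytes. The ratio to precursor cells of the same mouse ran from 1.41 to 2.08 and that to oligodendrocytes from 1.21 to 2.15. All 4 mice had the same direction, and mice 3 and 34 had about the same high level while mice 4 and 30 were lower. The mean difference was 804 UMIs ± 497 against precursor cells and 703 UMIs ± 551 against oligodendrocytes (SD, n = 4). Each gave p = 0.13 in a two-sided exact permutation test by sign, which is the smallest p that 4 mice allow. Genes per cell followed, at 1281, 759, 709 and 1269.5 in committed precursors, again the highest of the 3 types in each mouse.

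The mitochondrial share went the other way. Its median was 8.35% ± 1.02 in committed precursors, 12.5% ± 1.32 in precursor cells and 14.1% ± 1.22 in oligodendrocytes (SD, n = 4), lower in 4 of 4 mice against each (p = 0.13 in the same exact test, the smallest possible). Median doublet scores were 0.0477 ± 0.0129 in committed precursors, 0.0267 ± 0.00679 in precursor cells and 0.0475 ± 0.0102 in oligodendrocytes. Without the 10% of cells with the highest scores in each type and mouse, the UMI difference against precursor cells was 804 and that against oligodendrocytes 697. This cut takes the same share of cells from each type, so it cannot show the part of doublets in the difference.

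**Figure D2:**
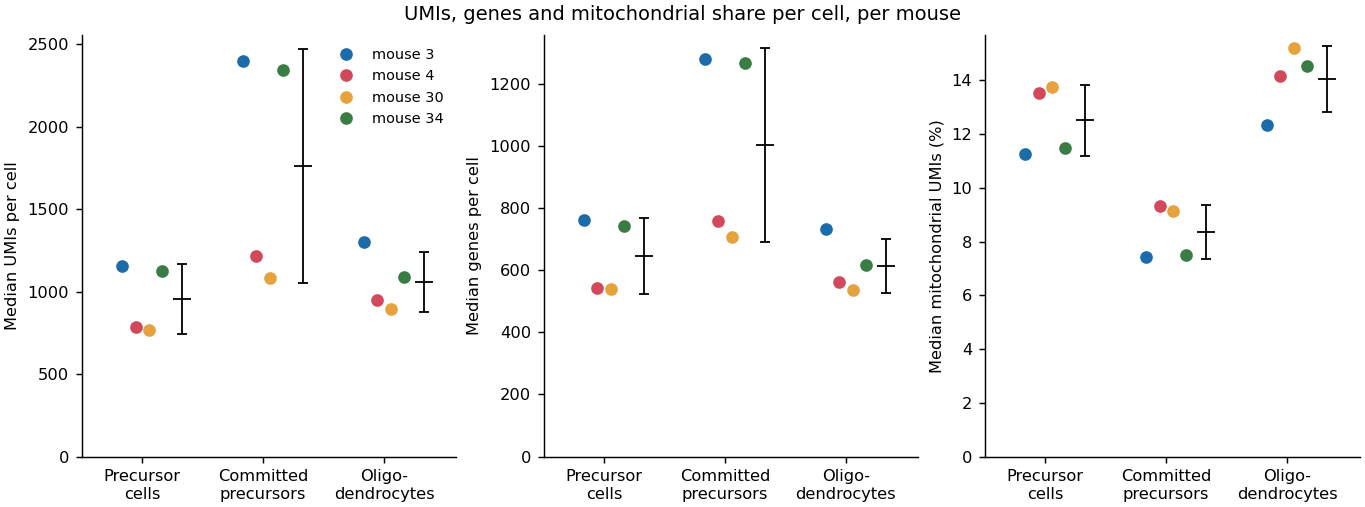
Median UMIs per cell, median genes per cell and median mitochondrial share (percent of UMIs) in 3 types of the oligodendrocyte lineage, each axis from 0, with 1 point per mouse and the mean and SD beside them. In each of the 4 mice committed precursors have the most UMIs and genes and the lowest mitochondrial share of the 3 types.

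Committed precursors made up a few percent of all cells. Their share was 2.82% in mouse 3 (95% exact interval 2.45 to 3.22), 6.16% in mouse 4 (5.35 to 7.06), 5.36% in mouse 30 (4.58 to 6.22) and 1.76% in mouse 34 (1.46 to 2.11). The mean was 4.03% ± 2.08 (SD, n = 4). Among cells of the 3 lineage types the shares were 9.20%, 15.04%, 17.9% and 5.68%. Mice 4 and 30 had the higher share by either count and also the fewer UMIs per committed precursor, and the part of depth or dissociation in this was not tested.

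Summed per mouse, committed precursors were compared with the types on either side of them in the same mice. Because the cell labels follow clusters made from the same counts, the calls describe how the clusters differ and are no independent test. A gene was called when its adjusted p in the edgeR quasi-likelihood test was below 0.05 and it differed by over 2-fold. Against precursor cells, 528 of 4879 genes were called higher in committed precursors (10.8%) and 644 lower (13.2%). Against oligodendrocytes, 828 of 6209 were called higher (13.3%) and 855 lower (13.8%). Astrocytes, an outgroup, gave 992 of 6780 higher (14.6%) and 1353 lower (20%). Among the 4647 genes tested against both neighbours, 305 were higher than in both (6.56%) and 167 lower than in both (3.59%), whereas 31 were higher than in precursor cells and lower than in oligodendrocytes and 38 the reverse. Of the same genes, 3076 were called against neither neighbour.

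**Figure D3:**
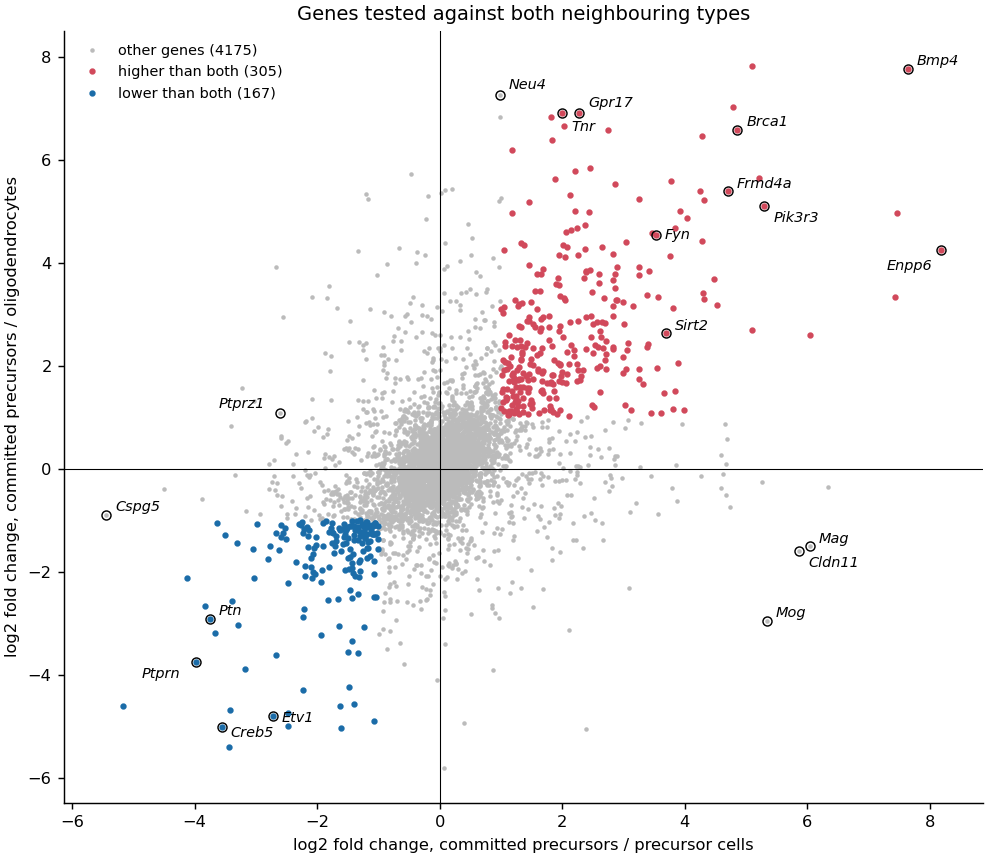
Each point is 1 of 4647 genes tested against both neighbouring types, with the log2 fold change against precursor cells on the x axis and that against oligodendrocytes on the y axis. Red marks the 305 genes called higher than in both and blue the 167 called lower than in both. Bmp4 lies far out on both axes, Neu4 and Gpr17 mainly on the y axis, and Mag, Mog and Cldn11 lie to the lower right.

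Of 16 genes named for commitment, 14 were in the table and 12 were tested against both neighbours. Of these, 10 were higher than in both, where 6.56% of all genes were. The median log2 fold change was 3.30 over the 12 genes tested against precursor cells and 4.53 over the 13 tested against oligodendrocytes. The median over all genes tested was -0.01 in each. The list holds the marker genes, so its counts are no independent evidence. Fyn, a Src family kinase that acts in axon contact and process outgrowth, stood at 2653, 2479, 3087 and 2920 CPM against 243 CPM ± 33.4 in precursor cells and 99.4 CPM ± 9.75 in oligodendrocytes (SD, n = 4). Its log2 fold changes were 3.53 ± 0.08 and 4.53 ± 0.10 (SE). Sirt2, a tubulin deacetylase, reached 5222 CPM ± 603 beside 410 CPM ± 52.5 and 697 CPM ± 91.8. Bcas1, a marker of premyelinating oligodendrocytes, was at 2080 CPM ± 108 beside 251 CPM ± 31.2 and 311 CPM ± 38.1. Frmd4a, a scaffold protein of cell polarity, was at 2020 CPM ± 142 beside 74.0 CPM ± 32.0 and 43.6 CPM ± 12.2. Mycl, a MYC family transcription factor, Itpr2, a calcium release channel, and Epb41l2, a membrane skeleton protein, had the same pattern. Neu4 and Tnfrsf21, a death receptor that limits differentiation, were called against oligodendrocytes and not against precursor cells, where Neu4 was at 0.98 on the log2 scale and Tnfrsf21 at 0.88, the latter called without mouse 34 (1.03).

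Over 8 types with at least 20 cells in each mouse, 568 of 3286 genes with at least 50 CPM in committed precursors were highest there in every mouse. As the floor was set on committed precursors, which favours such genes, the count is a description. Of these, 244 were at least 2 times and 53 at least 5 times the next type. After Bmp4 the steepest were Itgb7, an integrin beta chain, at 51.1 CPM ± 16.7 beside 1.02 CPM in precursor cells, and the uncharacterised transcript 9530059O14Rik at 327 CPM ± 53.0 beside 7.52 CPM in oligodendrocytes. Matn1, a matrix protein of cartilage, followed at 135 CPM ± 17.8, and Brca1, a DNA repair protein, at 243 CPM ± 39.4, each with precursor cells next at 3.73 and 8.99 CPM. Epcam, an epithelial adhesion molecule, was at 50.4 CPM ± 7.48, Gp1bb, a platelet glycoprotein chain, at 80.3 CPM ± 8.44, and Pycr1, an enzyme of proline synthesis, at 91.0 CPM ± 6.03. Several of these are better known from other tissues, and each was highest in committed precursors in 4 of 4 mice.

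The other genes most above both neighbours by the naming rule had varied roles. Pik3r3, a regulatory subunit of phosphoinositide 3-kinase, was at 873, 492, 483 and 619 CPM, with log2 fold changes of 5.30 ± 0.19 and 5.10 ± 0.14 (SE) against precursor cells and oligodendrocytes. Pdcd4, a translation inhibitor, was at 1645, 655, 1053 and 1405 CPM, with 4.25 ± 0.13 and 5.40 ± 0.13. Both genes were highest in mouse 3, and Pdcd4 was lowest in mouse 4, yet no mouse came near the level of a neighbouring type. Tmem108, a transmembrane protein of endosomal traffic, varied less, at 956 CPM ± 33.5 with 4.03 ± 0.13 and 4.87 ± 0.13. Kif19a, a kinesin, Rasgef1b, an exchange factor for Ras family proteins, and Rimkla, which joins N-acetylaspartate to glutamate, completed the list set by the rule for naming. Kif19a stood at 150 CPM ± 31.8, Rasgef1b at 283 CPM ± 28.0 and Rimkla at 58.4 CPM ± 14.0.

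The genes most below both neighbours by the naming rule were these. Ptn, the secreted growth factor pleiotrophin, was at 251, 173, 177 and 257 CPM, against 2950 CPM ± 620 in precursor cells and 1331 CPM ± 258 in oligodendrocytes (SD, n = 4). Its log2 fold changes were -3.75 ± 0.08 and -2.91 ± 0.10 (SE). Etv1, an ETS factor induced by ERK, stood at 24.2 CPM ± 8.57 beside 171 CPM ± 26.1 and 554 CPM ± 53.1, and Spry2, a feedback inhibitor of receptor tyrosine kinases, at 11.2 CPM ± 3.70 beside 164 CPM ± 82.7 and 60.2 CPM ± 22.6. Creb5, a transcription factor, Adora1, an adenosine receptor, Pmp22, a myelin protein best known from peripheral nerve, and Hepacam, an adhesion protein of glia, had the same shape. Ptprn, a protein of secretory vesicles, Cdc42ep1, an effector of CDC42, and Zcchc24 were the others the rule named, at 8.70, 7.31 and 33.9 CPM. Of 9 astrocyte markers tested against both neighbours, 6 were also called lower than in both (3.59% of all genes) and 0 higher. Summed per cell, the 10 astrocyte markers gave 2.79 UMIs ± 0.639 in committed precursors. Precursor cells held 4.39 ± 0.335 and oligodendrocytes 3.36 ± 0.255. The part of depth and of free RNA in the genes below both neighbours was not tested.

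Precursor genes were mostly switched down. Of 12 listed genes tested against precursor cells, 10 were lower in committed precursors (13.2% of all genes), 1 was higher (10.8% of all genes) and 1 was not called, with a median log2 fold change of -2.58. Ptprz1, a receptor phosphatase, kept 364 CPM ± 26.4 of 2254 CPM ± 110, and Cspg5, a chondroitin sulfate proteoglycan, 30.7 CPM ± 11.3 of 1387 CPM ± 77.1 (SD, n = 4). Lhfpl3, Cacng4 and C1ql1 were lower than in precursor cells and higher than in oligodendrocytes. The member called higher was Tnr, tenascin-R, a matrix glycoprotein of perineuronal nets and nodes, at 2127, 2353, 2407 and 1949 CPM against 552 CPM ± 25.1 and 15.6 CPM ± 3.31. Gpr37l1, an orphan receptor, was not called against precursor cells, at 534 CPM ± 61.2 beside 591 CPM ± 122. Outside the list, Cdo1, an enzyme of cysteine breakdown, had 1 UMI in all committed precursors and 292 in precursor cells, a ratio of 272 with an exact interval of 48.4 to 10780.

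Myelin genes were on, but unequally. Of 16 listed, 9 were tested against precursor cells, of which 8 were higher in committed precursors (10.8% of all genes), and 15 against oligodendrocytes, of which 12 were lower (13.8% of all genes) and none higher. The median log2 fold changes were 3.79 and -3.79. Mbp, myelin basic protein, at 8501 CPM ± 1222, and Cnp, a myelin phosphodiesterase, at 2928 CPM ± 118 (SD, n = 4), differed by under 2-fold from oligodendrocytes, with log2 fold changes of 0.02 ± 0.08 and -0.38 ± 0.08 (SE).

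A second group was part of the way. Mag, a glycoprotein that faces the axon, was at 787, 625, 603 and 485 CPM, against 8.19 CPM ± 6.35 in precursor cells and 1476 CPM ± 167 in oligodendrocytes (SD, n = 4). Cldn11, a tight junction protein of myelin, was at 1373 CPM ± 96.7 of 3439 CPM ± 391, and Mog, a late surface glycoprotein, at 162 CPM ± 22.7 of 1015 CPM ± 88.8. A further group was hardly on. Mal, a proteolipid of mature myelin, was at 46.8 CPM ± 20.7 of 2956 CPM ± 292, Aspa, which breaks down N-acetylaspartate, at 5.06 CPM ± 5.07 of 351 CPM ± 32.0, and Opalin at 34.4 CPM ± 19.95 of 834 CPM ± 139. Mobp stood at 288 CPM ± 51.3, no higher than the 293 to 475 CPM of astrocytes, tanycytes, ependymal, endothelial and microglial cells, so its level in committed precursors cannot be told apart from free RNA. Trf, transferrin, was at 83.5 CPM ± 27.6 of 2398 CPM ± 292.

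The remaining genes with the widest differences from 1 neighbour gave a finer picture. Chn2, a regulator of the GTPase RAC, was at 1252, 1080, 1072 and 1130 CPM against 15.8 CPM ± 6.85 in precursor cells and 155 CPM ± 24.5 in oligodendrocytes (SD, n = 4). Lgi3, a secreted protein of the LGI family, was 5.26 ± 0.25 (SE) above precursor cells on the log2 scale and at -0.26 ± 0.10 against oligodendrocytes. Ppfibp1, a liprin, at 546 CPM ± 30.2, Sh3bp4, an endocytic adaptor, at 244 CPM ± 34.9, and 4430402I18Rik at 310 CPM ± 101 were already present in precursor cells, at 155, 114 and 90.2 CPM, and nearly absent from oligodendrocytes. Of the genes lost from precursor cells, Ebf1, a transcription factor, had 153 UMIs there and 2 in committed precursors, a ratio of 71.3 with an exact interval of 19.4 to 594. Cp, the copper protein ceruloplasmin, had 148 and 2, Emid1, an extracellular protein, 163 and 3, and Rlbp1, a retinoid carrier, 221 and 4.

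Some genes of oligodendrocytes had few UMIs in committed precursors. Spock1, a matrix proteoglycan, had 1068 UMIs in oligodendrocytes and 2 in committed precursors, a ratio of 120 with an exact interval of 33.02 to 989. Tnni1, a troponin, had 879 and 2, and S1pr5, a sphingosine 1-phosphate receptor of oligodendrocytes, 662 and 2. Galnt6 had 784 and 2, Prr5l 1013 and 3, Pls1 715 and 2 and Plekhh1 1595 and 5. These counts were as low in precursor cells for Tnni1, Galnt6 and S1pr5, with 1, 1 and 2 UMIs.

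**Figure D4:**
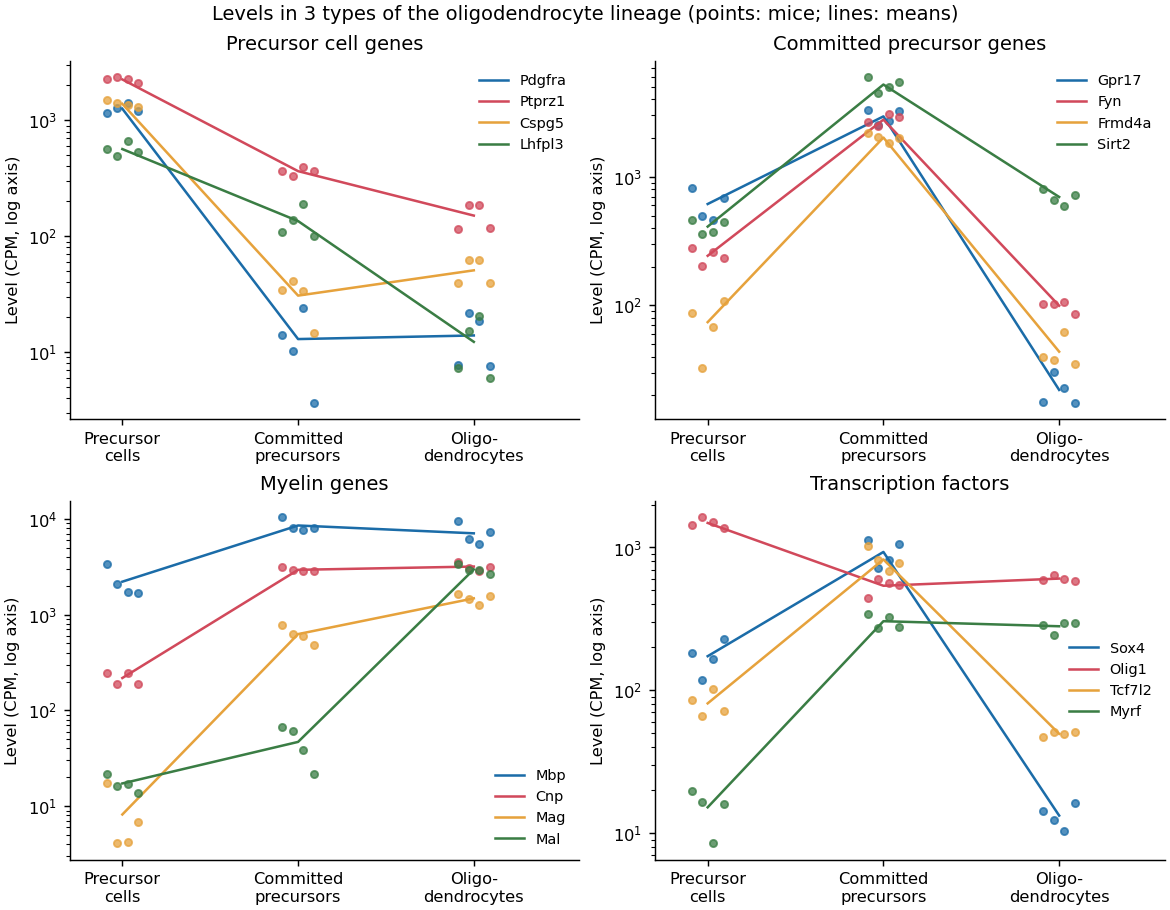
Levels in CPM on log axes in precursor cells, committed precursors and oligodendrocytes, with 1 point per mouse and lines through the means, for 4 genes each of precursor cells, committed precursors, myelin and transcription factors. Pdgfra and Cspg5 are already low in committed precursors, Mbp and Cnp are near their level in oligodendrocytes, and Mal is not.

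The transcription factors of the lineage changed in both directions. Of 17 tested against precursor cells, 7 were higher and 6 lower in committed precursors (10.8% and 13.2% of all genes). Of 16 tested against oligodendrocytes, 8 were higher and 2 lower (13.3% and 13.8% of all genes), so the 2 lower are near the share over all genes. Tcf7l2, a TCF/LEF factor of the Wnt pathway that is needed for differentiation, was at 1021, 818, 684 and 775 CPM, against 81.0 CPM ± 16.2 and 49.6 CPM ± 1.91 (SD, n = 4), with log2 fold changes of 3.42 ± 0.13 and 3.84 ± 0.12 (SE). Sox4, which is tied to the premyelinating state, was at 931 CPM ± 189 beside 173 CPM ± 44.7 and 13.3 CPM ± 2.56. Nkx2-2, Zfp488 and Sox2 were also higher than in both neighbours. Myrf, the master regulator of myelin genes, was at 343, 272, 325 and 279 CPM, 4.26 ± 0.22 above precursor cells on the log2 scale and at -0.14 ± 0.11 against oligodendrocytes. St18, a zinc finger factor, had 110 UMIs in committed precursors and 1 in precursor cells, and was not called against oligodendrocytes. Sox6 was at 500 CPM ± 97.0 beside 256 CPM ± 24.1 in precursor cells, at a log2 fold change of 1.00 ± 0.12 just below the limit, and 10.9 CPM ± 1.91 in oligodendrocytes.

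On the other side, Olig1 was at 540 CPM ± 68.3 of 1485 CPM ± 110 in precursor cells, while Olig2 and Sox10, the constant factors of the lineage, were not called against either type, and Olig2 was called higher than in oligodendrocytes without mouse 4, at 1.08 instead of 0.91 on the log2 scale. Sox5, Sox11, Myt1 and Hes5 were lower than in precursor cells. Nkx6-2, a homeobox factor of mature oligodendrocytes, and Zfp536 were lower than in oligodendrocytes.

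Of 8 ERK feedback genes tested against precursor cells, 7 were lower in committed precursors (13.2% of all genes) and 1, the ephrin receptor Epha4, was higher (10.8% of all genes), with a median log2 fold change of -4.55. This list was chosen with earlier results of these cells known, so its direction is no independent evidence. Etv5, an ETS factor, was at 5.75 CPM ± 4.43 of 257 CPM ± 39.3 (SD, n = 4), and Etv4 had 2 UMIs beside 134, a ratio of 62.4 with an exact interval of 16.9 to 521. Spry4 had 1 UMI beside 96, and the rule for naming added Spry1 with 3 beside 158. Epha4 stood at 157, 102, 90.9 and 149 CPM against 15.7 CPM ± 2.61 in precursor cells and 21.7 CPM ± 11.9 in oligodendrocytes. Among 9 receptors and partners tested, Fgfr1, Fgfr3, Pdgfra, Erbb3 and the integrin chain Itgav were lower (13.2% of all genes) and the kinase Mapk3 was higher (10.8% of all genes). Fgfr1 was at 10.3 CPM ± 6.04 of 77.1 CPM ± 10.6. Fgfr2 was at 12.4 CPM ± 7.35, against 218 CPM ± 20.2 in oligodendrocytes.

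Of the D cyclins, Ccnd1 and Ccnd2 were lower than in precursor cells and Ccnd3 was too low to test. Ccnd1, cyclin D1, was at 4.01, 6.79, 19.1 and 0 CPM against 444 CPM ± 37.6 in precursor cells (SD, n = 4), and Ccnd2, cyclin D2, at 23.4 CPM ± 7.34 of 124 CPM ± 14.1. Top2a, a topoisomerase of dividing cells, had 36 UMIs in precursor cells and none here, at least 11.2-fold lower against a floor of 3 counts over the group, and Mki67, a proliferation marker, had 3 beside 32. Cdk4, the partner kinase of the D cyclins, was at 323, 231, 378 and 326 CPM against 122 CPM ± 26.0 and 47.6 CPM ± 7.50, higher than in both neighbours. Of the 6 cell cycle genes tested against precursor cells, 2 were lower (13.2% of all genes), 1 was higher (10.8% of all genes) and 3 were not called. Most of the 25 listed were too low to test, and Cdk1 and Ccnb1 are listed at 0 in all cells of the 3 lineage types and in astrocytes.

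Of 5 Notch genes tested against precursor cells, Notch1, Hes1, Hes5 and Dner were lower (13.2% of all genes) and Rbpj was not called. Against oligodendrocytes 3 were tested and none was called, with Notch1 just under the limit at a log2 fold change of 0.99. Notch1 was called higher there with no replicate block (1.03) and without mouse 4 (1.06), and Rbpj, at 0.86, with equal totals (1.08). Notch1, the receptor, was at 27.9 CPM ± 6.98 of 120.5 CPM ± 28.7, and Dner, a Notch ligand, at 22.2 CPM ± 6.54 of 217 CPM ± 39.2 (SD, n = 4). Beside Tcf7l2, the Wnt list gave few calls: of 4 genes tested against precursor cells Tcf7l2 was higher (10.8% of all genes) and Apc, Ctnnb1 and Lrp6 were not called. Axin2, a feedback target, was too low to test against either neighbour, at 26.8 CPM ± 7.26. Of the BMP and ID list, Bmp4 itself was the 1 gene higher of 7 tested against precursor cells (10.8% of all genes), while Id2 and Id3, targets of BMP signalling, and the receptor Bmpr1a were lower (13.2% of all genes). Bmpr1a, at -1.18 on the log2 scale, lost its call with the DESeq2 Wald test, which gave -1.15 with an adjusted p of 0.0548. Id2 was at 74.6 CPM ± 19.8 of 336 CPM ± 46.1.

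Cytoskeleton genes were called in both directions. Of 25 listed genes tested against precursor cells, 9 were higher and 7 lower, where 10.8% and 13.2% of all genes were. Of 23 tested against both neighbours, 3 were higher than in both (6.56% of all genes), namely Tubb2b, Tuba1a and Map1b, and 3 were lower (3.59% of all genes). Tuba1a, an alpha tubulin, was at 6248, 5694, 8748 and 6502 CPM against 1046 CPM ± 88.7 and 784 CPM ± 110 (SD, n = 4). Tubb4a, a beta tubulin of oligodendrocytes, was at 1944 CPM ± 243 beside 74.9 CPM ± 10.7 in precursor cells and 1087 CPM ± 90.6 in oligodendrocytes. Map1b, a microtubule-associated protein of growing processes, was at 1199 CPM ± 26.2 beside 156 CPM ± 40.2 and 145 CPM ± 14.9. The lower ones were the stathmins Stmn1, Stmn3 and Stmn4, which destabilise microtubules, and Stmn4 was at 43.6 CPM ± 12.9 against 125 CPM ± 39.0 and 1124 CPM ± 147.

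Adhesion and axon contact genes made up the list with the most members above both neighbours after the commitment genes. Of 18 tested against both, 8 were higher than in both (6.56% of all genes) and 1, Sema6d, was lower (3.59% of all genes). Nfasc, neurofascin, which assembles the junction between axon and glia, was at 3086, 3127, 2895 and 2576 CPM against 83.6 CPM ± 18.0 in precursor cells and 374 CPM ± 38.5 in oligodendrocytes (SD, n = 4). Its log2 fold changes were 5.10 ± 0.10 and 2.68 ± 0.09 (SE). Sema5a, an axon guidance protein, was at 450 CPM ± 62.8 beside 97.2 CPM ± 18.4 and 11.0 CPM ± 3.37, Plxnb3, a semaphorin receptor, at 360 CPM ± 73.5 beside 47.3 CPM ± 13.2 and 85.0 CPM ± 7.08, and Cd9, a tetraspanin, at 2667 CPM ± 846 beside 606 CPM ± 59.1 and 404 CPM ± 55.4. Cadm1, Cadm2, Itgb1 and Tnr were the others. Itgb1 was at a log2 fold change of 1.01 ± 0.16 (SE) against precursor cells, and it fell under the limit without mouse 4 (0.96), without mouse 34 (0.90), with no replicate block (0.987) and with equal totals (0.994). Cntn1, contactin, was lower than in precursor cells at 167 CPM ± 29.6 of 1052 CPM ± 83.7, and Cntn2, which belongs to the mature node, was at 9.65 CPM ± 7.13 of 524 CPM ± 6.47 in oligodendrocytes.

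Of 12 cholesterol synthesis genes tested against precursor cells, 1 was called, as higher, and of 17 tested against oligodendrocytes 2 were higher and 2 lower, close to the shares over all genes (10.8%, 13.3% and 13.8%). Of 15 sphingolipid and fatty acid genes, 6 were higher than in precursor cells (10.8% of all genes), among them Ugt8a, which makes galactocerebroside, at 503 CPM ± 61.8 of 138 CPM ± 41.9, and Fa2h, a fatty acid hydroxylase, at 209 CPM ± 24.8 of 33.5 CPM ± 6.81 (SD, n = 4). Scd2, a desaturase, was at 1658 CPM ± 85.0 beside 3607 CPM ± 340 in oligodendrocytes. Acsl3, an acyl-CoA synthetase, was the 1 gene above both neighbours of 15 tested against both, near the 6.56% of all genes. Of 12 cholesterol synthesis genes tested against both, 0 were above both.

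Receptors and channels for neuronal signals were mostly lower than in precursor cells, 10 of 16 tested (13.2% of all genes), with 2 higher, near the 10.8% of all genes. Grm5, a metabotropic glutamate receptor, was at 18.0 CPM ± 8.30 of 277 CPM ± 24.9, and Kcnd2, a potassium channel, at 19.7 CPM ± 5.79 of 187 CPM ± 15.1 (SD, n = 4). Gria2, an AMPA receptor subunit, stayed at 1300 CPM ± 206 beside 916 CPM ± 53.6 in precursor cells, and was 4.49 ± 0.12 (SE) above oligodendrocytes on the log2 scale. Kcna1 and Kcna2, potassium channels, were higher than in precursor cells, and Kcna1, at a log2 fold change of 1.15 ± 0.29 (SE), lost its call without mouse 4 (0.92). Slc1a1, a neuronal glutamate transporter outside the list, was at 550 CPM ± 33.3 beside 82.1 CPM ± 12.5 and 4.87 CPM ± 1.84.

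Genes of cell death and of the response to handling were read as side checks. Of 7 death and survival genes tested against precursor cells, Tfeb, a lysosomal regulator that limits survival in this lineage, and Bak1, a pro-apoptotic pore former, were higher (10.8% of all genes) and Bcl2, its inhibitor, was lower (13.2% of all genes). Tfeb was at 64.2, 50.9, 62.2 and 61.6 CPM against 10.3 CPM ± 4.21, and Bak1, at 60.8 CPM ± 20.3 of 27.5 CPM ± 11.6, was not called by the DESeq2 Wald test, and its log2 fold change of 1.11 ± 0.30 (SE) fell below the limit without mouse 4 or mouse 34, at 0.95 and 0.76. Immediate early genes, which dissociation can induce, were lower than in precursor cells for 5 of 6 tested (13.2% of all genes), and Fos was at 70.2, 109, 47.9 and 130 CPM against 633 CPM ± 191 and 246 CPM ± 44.3. Summed per cell, the 10 immediate early genes gave 0.639 UMIs ± 0.345 in committed precursors, 1.58 ± 0.551 in precursor cells and 0.716 ± 0.118 in oligodendrocytes, and the part of handling in the differences was not tested. Of the glucocorticoid-induced genes, Sgk1 was higher than in precursor cells at 600.3 CPM ± 26.3 of 85.4 CPM ± 25.5, and Tsc22d3 was lower than in both neighbours. Against precursor cells Tsc22d3 was at -1.06 ± 0.21 (SE) on the log2 scale, and it lost this call without mouse 3 (-0.88), with no filter (-0.97), without high doublet scores (-0.84) and in 1 fit over 3 types (-0.99).

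The committed precursors split only at the highest resolutions of the deposited clusterings. They formed exactly 1 cluster of 681 cells at each resolution from 0.2 to 1.4. At 1.6, 1.8 and 2 they fell into a pair of clusters, of 430 and 251 cells at resolution 2. The larger cluster held 83.2% of the committed precursors of mouse 3, 45.4% of mouse 4, 50.9% of mouse 30 and 74.1% of mouse 34. Its cells had medians of 2487, 1509, 1433 and 2466 UMIs in the 4 mice, against 1710, 1027, 819 and 1755 in the smaller cluster. The median doublet score was lower in the larger cluster in 4 of 4 mice, at 0.0427, 0.0336, 0.0314 and 0.0619 against 0.121, 0.0455, 0.0491 and 0.102. Of 1843 genes with at least 100 CPM in either cluster, 48 were at least 2 times higher in the larger cluster and 17 at least 2 times lower by the ratio of the means over mice, with the same direction, though not always a 2-fold difference, in every mouse. As the clusters were made from these genes, the counts are a description.

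Genes higher in the larger cluster in 4 of 4 mice included genes that are higher still in oligodendrocytes, and also Pik3r3, which is not. Mag was at 741 CPM against 313 CPM, Cldn11 at 1603 against 736, Tppp, a tubulin polymerisation protein, at 250 against 53.1, and Pik3r3 at 753 against 193 (means over 4 mice). Other genes of oligodendrocytes did not share the direction in every mouse, as Mog was lower in the larger cluster in mouse 4 (142 against 167.5 CPM) and Mobp in mouse 3 (325 against 357.5 CPM). Opalin in mouse 30, at 7.57 against 13.02 CPM, was too low to read a direction. Tcf7l2 was at 1117, 1017, 802 and 844 CPM in the larger cluster and at 373, 550, 482 and 496 CPM in the smaller. Some precursor genes were lower there in 4 of 4 mice: C1ql1 was at 32.6 CPM against 83.0, Cacng4 at 74.0 against 208, and Cspg4, the NG2 proteoglycan, at 11.7 against 43.9. Others had no shared direction, as Lhfpl3, at 140 CPM against 130, was higher in the larger cluster in 3 of 4 mice. Of the 4 markers, Gpr17 was lower in the larger cluster in 4 of 4 mice, at 2735 CPM against 3728, Enpp6 was higher in 4 of 4, at 774 against 544, and Bmp4 and Neu4 had no shared direction. Pdgfra was low in both, at 14.0 and 16.9 CPM, and its 16 UMIs over all committed precursors are too few to read a direction. The mice with the greater share of committed precursors in the larger cluster, 3 and 34, were those with more UMIs per committed precursor, and the part of depth and of doublets in the split was not tested.

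**Figure D5:**
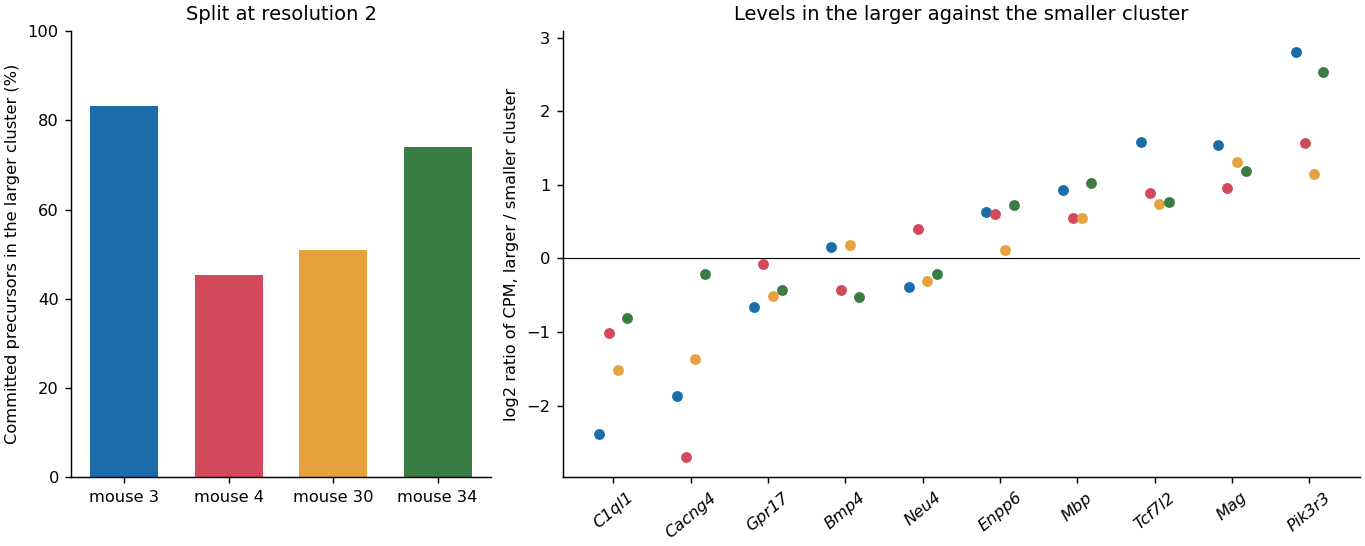
Left, the percent of the committed precursors of each mouse that fell in the larger of the pair of clusters at resolution 2, on an axis from 0 to 100. Right, the log2 ratio of CPM in the larger to the smaller cluster for 10 genes, 1 point per mouse in the same colours. Precursor genes C1ql1 and Cacng4 lie below 0 and Enpp6, Mbp, Tcf7l2, Mag and Pik3r3 above 0 in each mouse, while Bmp4 scatters about 0.

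The spread between mice was like that of the neighbouring types. The common biological coefficient of variation over 3286 genes was 0.126, beside 0.122 in precursor cells and 0.120 in oligodendrocytes, values that rest on different numbers of cells. The genes with the largest dispersion among those with at least 100 CPM included Gm10076, Hbb-bs, PISD, Vps8, mt-Atp8, Rpl13, Fth1, Nnat and mt-Nd3. Mouse 4 was the highest in 6 of these 9. Rpl13, a ribosomal protein, had 283, 818, 325 and 293 CPM in the mice in the same order, and the mitochondrial gene mt-Atp8 had 201, 452, 536 and 156 CPM.

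For Rpl13 and mt-Atp8 the same mice were high in the neighbouring types. Rpl13 was at 1097, 2468, 926 and 915.5 CPM in precursor cells and at 342, 829, 372 and 311 CPM in oligodendrocytes, and mt-Atp8 at 335, 603, 858 and 330 CPM and at 385, 693, 967 and 418 CPM. Hbb-bs and PISD broke the pattern. For Hbb-bs, a beta globin of red blood cells, in committed precursors mouse 3 was highest at 271 CPM, whereas mouse 30 was highest in precursor cells at 365 CPM and in oligodendrocytes at 288 CPM. PISD was highest in mouse 30 in committed precursors, at 522 CPM, and in mouse 3 in precursor cells, at 160 CPM. What differs between these libraries, in depth, dissociation or animal, cannot be told apart with 1 library per mouse.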

How the data were processed

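Single-cell libraries of the hypothalamus of 4 mice were made with 10x Chromium 3' v2 chemistry. The authors deposited raw UMI counts per gene and cell, a cell type label, cluster numbers, a doublet score (a fraction from 0 to 1), a silhouette score and a mitochondrial percent for each cell. Their processing notes name Cell Ranger 1.2 and Seurat, and the builds GRCm38, mm10 and GRCh38 without roles. How labels and doublets were called is not given in the sources used here, and no doublet was removed here. Deposited counts summed to the listed totals in 20151 of 20151 cells, and 194 of 19954 barcodes occurred in more than 1 library, with 14 committed precursors among them. Committed precursors held 498365, 294507, 208955 and 276060 UMIs in mice 3, 4, 30 and 34, and no pair of libraries was a duplicate (chi-square per degree of freedom 1.30 to 2.55 between committed precursor sums).

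UMI counts were summed per mouse and type and tested with edgeR 4.0.16 in R 4.3.3 (quasi-likelihood F test, TMM, filterByExpr, Benjamini-Hochberg over all genes tested, mouse as a block because the types come from the same animals). SEs were derived from F. CPM were means over mice. Intervals cover counting error only. The scripts were tested on simulated counts with known fold changes. The members, gene lists and rules were chosen with earlier results of these data known. Genes named were list members, the 10 most changed in each direction against each neighbour with at least 100 CPM, the 15 most above and 10 most below both neighbours with at least 50 CPM, and the 10 most dispersed. A few of these genes are not reported here. Itgb7 and the genes described in each of the pair of clusters were chosen after their values were seen. Alternatives were DESeq2 1.42.0, its size factors, no filter, no block, equal totals, 1 fit over 3 types, removal of high doublet scores and leaving out each mouse.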

Additional observations from a re-analysis of the deposited data

Results flagged for a closer look

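Of 70 sets of 4 mice examined (depth, share and mitochondrial measures and the genes named by the rule, in committed precursors), 6 had 1 mouse that stood apart by Dixon's 95% critical value for 4 samples, where chance marks about 1 in 20 sets (5%). Mouse 4 stood apart in 5 of the 6. It was high for Gm10076 at 581 CPM (the others lay between 110 and 178 CPM), for Rpl13 at 818 CPM against 283 to 325 CPM and for Kif19a at 197 CPM against 129 to 138 CPM. Kif19a was at 8.20 CPM in precursor cells and 3.79 CPM in oligodendrocytes of mouse 4, also the highest of the mice there. The other 2 flags for mouse 4 rest on counts of 1 and 2 UMIs: Cdo1 at 3.40 CPM and Pls1 at 6.79 CPM, with the other mice at 0. Mouse 3 stood apart for Enpp6, at 825 CPM against 674 to 684 CPM.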

How the results depend on the processing

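Most counts of genes kept within 1.5 times of their value under each alternative, and the exceptions were these. With no filter on low counts, 837 genes were called higher and 1464 lower than in precursor cells, 1431 lower than in oligodendrocytes, 2427 lower than in astrocytes and 411 lower than in both neighbours. This setting tests far more genes, and it also moved the median log2 fold change of all genes to -0.15, -0.15 and -0.25. One fit over the 3 lineage types called 973 genes lower than in precursor cells, from 7108 tested. With equal totals, 895 were lower than in astrocytes, from 4680 tested. The replicate block changed little: with no replicate block, 304 genes were higher and 167 lower than in both neighbours. Of the 305 genes higher than in both, between 280 and 303 were shared with each alternative, except 305 with the DESeq2 size factors, and of the 167 lower, 116 with equal totals.

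Leaving out each mouse gave 530 to 640 genes higher and 607 to 866 lower than in precursor cells, 766 to 1014 and 779 to 1084 against oligodendrocytes, 929 to 1145 and 1218 to 1620 against astrocytes, and 307 to 354 and 164 to 235 against both neighbours. The share of committed precursors ran from 3.31% to 4.78%, and was 12.0% of the 3 lineage types. The coefficient of variation ran from 0.108 without mouse 4 to 0.137 without mouse 34, and was 0.139 with 50 cells per mouse. Without thinning, Bmp4 was detected in 41.3%, Gpr17 in 92.2%, Enpp6 in 66.0% and Neu4 in 63.0% of committed precursors.

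Among the genes named by the rules or lists, 1 direction turned: Hba-a2, not called against oligodendrocytes, was -1.12 on the log2 scale without mouse 3 and 1.30 without mouse 30. Neu4 and Sox6 passed the 2-fold limit against precursor cells with no filter and in the fit over 3 types, Neu4 also without mouse 30 or 34 and Sox6 without mouse 4, and Btg2, Bak1, Bmpr1a, Cacna1a and Ctss lost their calls against precursor cells with the DESeq2 Wald test. Their log2 fold changes stayed over 2-fold there, at -1.08, 1.14, -1.15, -1.05 and -1.20, and only the adjusted p passed 0.05, at 0.130, 0.0659, 0.0548, 0.116 and 0.126. The depth limits genes under about 10 UMIs. Many of these are given as counts, and others, such as Etv5, Ccnd1 and Aspa (8 UMIs in committed precursors), as CPM.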
